A study of Homo sapiens with 16 samples.

Results

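The oligoadenylate synthetase (OAS) family was read here as the 4 genes OAS1, OAS2, OAS3 and OASL, out of 34423 gene names on the array. Its members were taken by name: every non-control probe whose gene name equalled one of these symbols was used, which gave 7 probes of 50599. RPMI-8226 and MM.1S, established human multiple myeloma cell lines, received vehicle (DMSO), the EZH2 inhibitor GSK126 at 1 μM, the G9a inhibitor UNC0638 at 1 μM, or both inhibitors at 1 μM each, for 6 days. EZH2 methylates histone H3 at lysine 27 and G9a methylates it at lysine 9, and both marks are associated with silent genes. Each of the 8 groups held 2 biological replicates, and each of the 16 RNA samples was hybridised alone to a one-colour (Cy3) Agilent array. The comparison asks how the family responded to each inhibitor and to their combination. Each line was hybridised on a slide of its own, so effects of slide and line cannot be told apart.

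OAS proteins are interferon-induced sensors of double-stranded RNA. OAS1, OAS2 and OAS3 are enzymes that, once bound to such RNA, join ATP into 2′-5′-linked oligoadenylates (2-5A), which act as an antiviral second messenger. OASL, the OAS-like member, has lost this synthetase activity, carries ubiquitin-like domains and is known to enhance signalling through the RNA sensor RIG-I. Transcription of the family is driven mainly by ISGF3, a complex holding STAT2 and IRF9 that forms below the interferon receptor and binds interferon-stimulated response elements.

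The sequences given here are the probes of the closest pair and the gene starts for which a promoter was available. The OAS1 probe A_23_P64828 lies at chr12:113354461-113354520 and the OAS3 probe A_33_P3402489 at chr12:113405902-113405961, both on the plus strand of GRCh37. They are shown because they were the most alike of all probe pairs from different members, with capitals marking the 11-base run that they share.
OAS1 probe A_23_P64828: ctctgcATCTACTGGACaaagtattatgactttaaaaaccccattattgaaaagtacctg
OAS3 probe A_33_P3402489: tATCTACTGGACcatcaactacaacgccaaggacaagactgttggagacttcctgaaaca
OAS3 forward qRT-PCR primer of the study: ggaccatcaactacaacgcc
In the best ungapped alignment of the 2 probes, 33 of 55 bases were identical (60%). The 20-base forward primer that the study used for OAS3 qRT-PCR matched bases 9 to 28 of the same OAS3 probe.

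RefSeq promoters matched 2 of the 4 members by symbol, OAS1 and OAS3, and are given as the 250 bases before each RefSeq start (GRCh38.p14, plus strand). These 2 are shown because no promoter of OAS2 or OASL was available. The choice does not rest on expression: OAS2 A_23_P204087 correlated with OAS1 at 0.90 and with OAS3 A_24_P335305 at 0.91. Capitals mark matches to the core of the interferon-stimulated response element, searched on both strands as GAAANGAAA and GAAANNGAAA, where N is any base and matches may overlap.
OAS1 promoter, chr12:112906712-112906961: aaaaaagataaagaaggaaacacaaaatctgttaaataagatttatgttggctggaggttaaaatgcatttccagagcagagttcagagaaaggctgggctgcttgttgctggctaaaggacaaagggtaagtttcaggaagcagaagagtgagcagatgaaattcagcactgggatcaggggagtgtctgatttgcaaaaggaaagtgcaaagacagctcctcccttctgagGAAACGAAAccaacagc
OAS3 promoter, chr12:112938224-112938473: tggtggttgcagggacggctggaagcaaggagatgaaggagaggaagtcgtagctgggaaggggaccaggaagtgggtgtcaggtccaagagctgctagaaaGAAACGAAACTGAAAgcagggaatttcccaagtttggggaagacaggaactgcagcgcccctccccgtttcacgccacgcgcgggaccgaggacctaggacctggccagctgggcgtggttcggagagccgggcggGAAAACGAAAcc
The OAS1 promoter held 1 match, GAAACGAAA, at bases -17 to -9 before the start. In the OAS3 promoter there were 3 matches: GAAACGAAA at -148 to -140, the overlapping GAAACTGAAA at -143 to -134, and GAAAACGAAA at -12 to -3. Over 35116 promoters of the same length, 2.69% held the first form, 3.02% the second and 5.48% either. A match describes the letters only and was not tested as a binding site.

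The family's other probes were the OAS3 probe A_24_P335305 (chr12:113410131-113410190), the OAS2 probes A_33_P3225522 (chr12:113426550-113426609), A_33_P3225512 (chr12:113448429-113448488) and A_23_P204087 (chr12:113448601-113448660), all on the plus strand of GRCh37, and the OASL probe A_23_P139786 (chr12:121458320-121458379, minus strand). The probes of OAS1, OAS3 and OAS2 spanned 94.2 kb, the OAS gene cluster of chromosome 12, and OASL lay 8.01 Mb away on the same chromosome. A_33_P3225522 is annotated by the array design to an OAS2 transcript variant that the annotation of the other OAS2 probes does not list.

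Values are levels on a log2 scale: the log2 of a probe's processed intensity minus the log2 of its array's 75th percentile, so that 0 is the 75th percentile of the array and a difference of 1 is a 2-fold change. Across arrays, 46.5% to 49.7% of probes were well above background in RPMI-8226 and 49.9% to 52.8% in MM.1S, and replicates correlated at r of 0.985 to 0.991 and 0.993 to 0.995, respectively. All 8 plasma cell and myeloma markers (SDC1, TNFRSF17, CD38, XBP1, IRF4, PRDM1, SLAMF7 and MZB1) were detected in all 8 groups. A call is an adjusted p under 0.05 in limma, with Benjamini-Hochberg adjustment over all probes kept for that cell line. Of the 7 OAS family probes, 6 were kept in each line. The exception was OAS3 A_33_P3402489, which was well above background on 0 of 16 arrays, read levels from -7.16 to -5.48 and was not tested.

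OAS1, OAS2 and OAS3 were upregulated in RPMI-8226 cells by GSK126 + UNC0638. OAS1 rose 6.16-fold, OAS2 4.38-fold on probe A_23_P204087, and OAS3, which was not well above background in DMSO, at least 5.54-fold on this intensity scale. In the same line no OAS family probe passed the test with either inhibitor alone. When both cell lines were fitted together, 3 of 6 (OAS1, OAS3 and OAS2 A_23_P204087) passed with GSK126. The share of all probes called in that fit is not given here. In bulk samples such as these, a change in the share of cells that express a gene and a change in RNA per cell cannot be told apart.

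OAS1, the single-unit synthetase, read levels of -2.66 and -2.77 (replicates 1 and 2) in RPMI-8226 cells with DMSO, -0.71 and -1.74 with GSK126, -1.87 and -2.13 with UNC0638, and -0.19 and -0.0032 with both. All treated arrays lay above both DMSO arrays, the combination arrays lay above all others, and the GSK126 arrays were far apart. The log2 change of OAS1 with the combination was 2.62 (SE 0.32, limma adjusted p = 0.00495). With GSK126 alone it was 1.49 (SE 0.32, limma adjusted p = 0.149) and with UNC0638 alone 0.72 (limma adjusted p = 0.563), neither of which passed.

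OAS3, the largest synthetase and a sensor of long double-stranded RNA, read levels of -6.26 and -4.51 on probe A_24_P335305 in RPMI-8226 cells with DMSO, -2.61 and -3.57 with GSK126, -4.29 and -4.90 with UNC0638, and -1.95 and -1.68 with both. Neither DMSO array and only 1 of the 2 UNC0638 arrays was well above background, and the UNC0638 and DMSO arrays overlapped. The combination arrays lay above every other array of the line. The fitted log2 change of OAS3 with the combination was 3.57 (SE 0.59, limma adjusted p = 0.0143). In this line the probe entered the tests only through its GSK126 and combination groups. This call is therefore not independent of the filter. Because the DMSO level is only a bound, the fold was given against the lowest measurable signal. It was at least 5.54-fold for the combination and at least 2.29-fold for GSK126, bounds that hold on this intensity scale only. The GSK126 fitted change of 2.29 did not pass (SE 0.59, limma adjusted p = 0.224). With normexp background correction and an offset of 50, a constant added to every signal before the log is taken, the fitted changes were 1.13 with the combination (limma adjusted p = 0.0063) and 0.56 with GSK126. Without combination replicate 1 or 2, the OAS3 call was lost (limma adjusted p = 0.0750 and 0.0625).

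OAS2, the synthetase of intermediate size, was read by 3 probes. A_23_P204087 gave levels of -2.72 and -2.31 in RPMI-8226 cells with DMSO, -0.91 and -1.18 with GSK126, -2.58 and -1.78 with UNC0638, and -0.78 and 0.015 with both. GSK126 and combination arrays lay above all DMSO and UNC0638 arrays, while UNC0638 overlapped DMSO. The log2 change of OAS2 on this probe was 2.13 with the combination (SE 0.36, limma adjusted p = 0.0153) and 1.47 with GSK126 (SE 0.36, limma adjusted p = 0.201). The call was lost without DMSO replicate 1 or combination replicate 2 (limma adjusted p = 0.0744 and 0.0581). A_33_P3225512 gave -4.09 and -2.87 with DMSO, -1.88 and -2.10 with GSK126, -3.22 and -2.70 with UNC0638, and -1.91 and -0.98 with both. This probe showed the same separation, except that the GSK126 and combination arrays overlapped, and its log2 change with the combination was 2.03 (SE 0.47, limma adjusted p = 0.0384). It no longer passed when any 1 array other than DMSO replicate 2 was left out (limma adjusted p from 0.0613 to 0.129), without the filter on dim probes (0.0855) or with a fit of only the compared groups (0.10). With normexp the changes were 1.34 on A_23_P204087 and 0.98 on A_33_P3225512, both still called.
The variant-specific OAS2 probe A_33_P3225522 gave levels of -0.95 and -0.23 with DMSO, 0.25 and -0.017 with GSK126, -0.64 and -0.17 with UNC0638, and 0.13 and 0.96 with both. The order was as for the other OAS2 probes, with a smaller change of 1.13 for the combination that did not pass (SE 0.36, limma adjusted p = 0.0867) but did in 4 of 18 alternatives.

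OASL read levels of -0.45 and -0.28 in RPMI-8226 cells with DMSO, 0.97 and 0.088 with GSK126, -0.76 and -0.66 with UNC0638, and 0.64 and 0.67 with both. Here the UNC0638 arrays were the lowest of the line, and GSK126 and the combination lay above DMSO and overlapped each other. The log2 change of OASL was 1.02 with the combination (SE 0.28, limma adjusted p = 0.0603), 0.89 with GSK126 (SE 0.28, limma adjusted p = 0.319) and -0.35 with UNC0638 (SE 0.28, limma adjusted p = 0.812), none of which passed. The combination change passed in 7 of 18 alternatives, with limma adjusted p from 0.0137 to 0.212 over all of them.

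**Figure D1:**
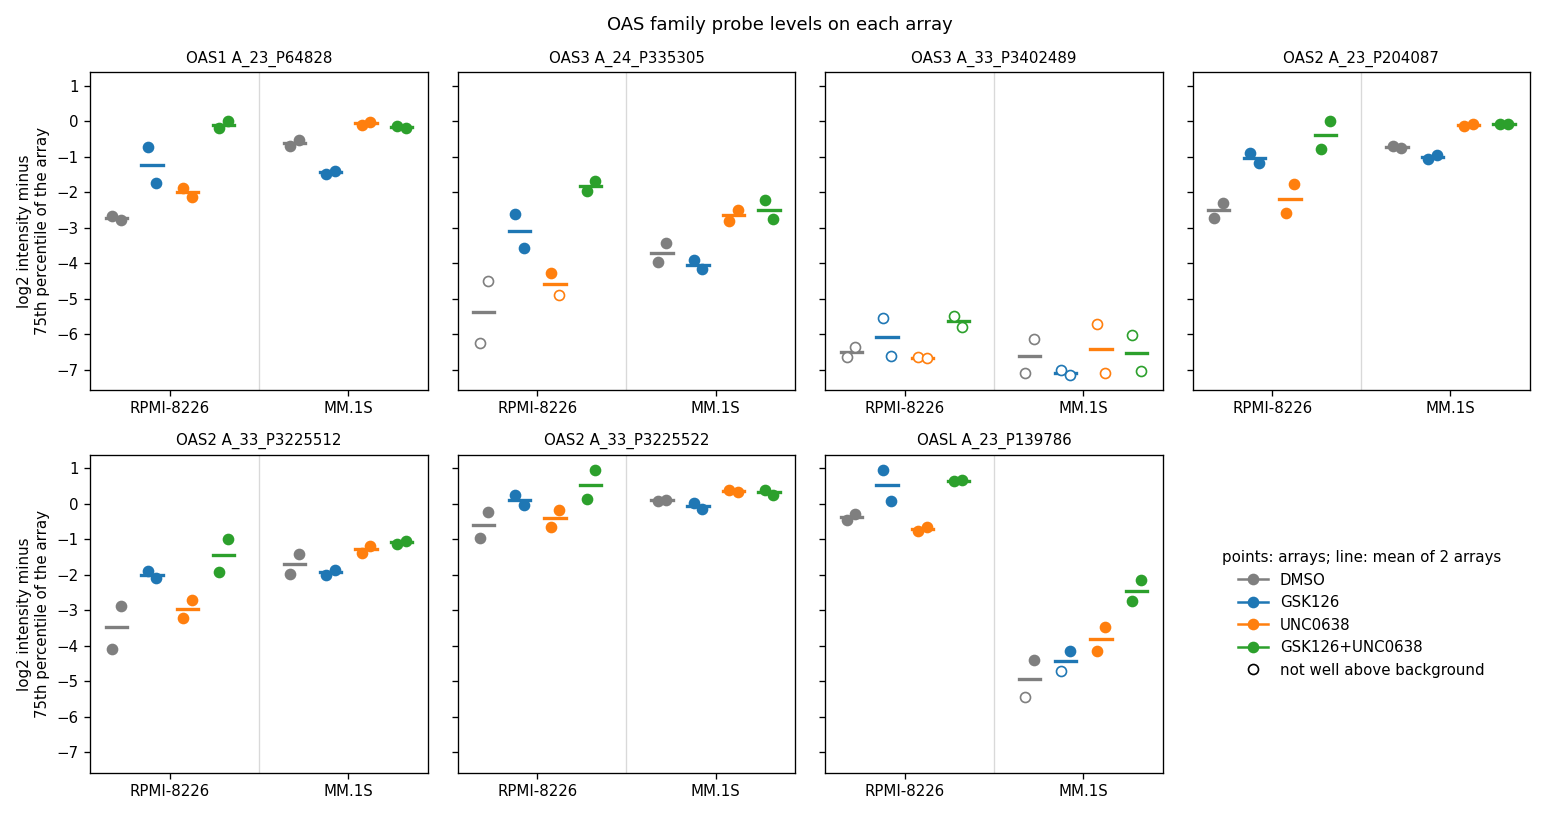
Levels of the 7 OAS family probes on all 16 arrays, as log2 intensity minus the 75th percentile of the array (y axis), by cell line and treatment (x axis and colour). Points are arrays, lines are means of 2 arrays and open points were not well above background; OAS1 in RPMI-8226 runs from -2.77 with DMSO to -0.0032 with both inhibitors, and OASL lies far lower in MM.1S than in RPMI-8226.

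In all, 4 of the 6 OAS family probes tested in RPMI-8226 were called higher with the combination and 0 lower, against 7.20% of all 23196 probes called higher and 5.15% lower. The OAS3 call among these carries the limit of the filter given above. The median log2 change over the 6 was 2.08, against -0.13 over all probes. With GSK126, 0 of 6 were called, against 0.548% of all probes called higher, and 5 of 6 had an unadjusted limma p under 0.05, as did 10.7% of all probes. The median was 1.48 against -0.05. With UNC0638, 0 of 6 were called, against 0.556% of all probes, and 0 had an unadjusted p under 0.05, against 9.60%. The median was 0.42 against -0.03. The combination count fell from 4 to 2 without DMSO replicate 1 or without combination replicate 1, and to 1 (OAS1) without combination replicate 2. Blocking on the replicate number, which paired the arrays of this line, gave calls for all 6 probes, OAS2 A_33_P3225522 with a limma adjusted p of 0.0369 and OASL with 0.0492. The share of all probes called with this block is not given here.

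In MM.1S cells, UNC0638 raised OAS1, OAS3 and, on probe A_23_P204087 only, OAS2 modestly. GSK126 lowered OAS1, and GSK126 + UNC0638 raised all 4 genes, with OASL changing most. When both cell lines were fitted together, only the OASL call with the combination remained. OAS1 levels were -0.69 and -0.52 with DMSO, -1.48 and -1.41 with GSK126, -0.094 and -0.037 with UNC0638, and -0.13 and -0.20 with both. No group overlapped DMSO: the GSK126 arrays were the lowest of the line, and those with UNC0638 or both were the highest. The log2 change of OAS1 was -0.84 with GSK126 (SE 0.09, 1.79-fold lower, limma adjusted p = 0.00856), 0.54 with UNC0638 (1.45-fold higher, limma adjusted p = 0.00966) and 0.44 with both (1.35-fold higher, limma adjusted p = 0.00852). Without UNC0638 replicate 2 the UNC0638 call was lost (limma adjusted p = 0.0553).

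OAS3 levels in MM.1S, on probe A_24_P335305, were -3.97 and -3.43 with DMSO, -3.92 and -4.17 with GSK126, -2.80 and -2.50 with UNC0638, and -2.22 and -2.76 with both. GSK126 overlapped DMSO, and UNC0638 and the combination lay above both and overlapped each other. OAS3 rose 2.07-fold with UNC0638 (log2 change 1.05, SE 0.26, limma adjusted p = 0.0284) and 2.31-fold with the combination (log2 change 1.21, SE 0.26, limma adjusted p = 0.00916). The UNC0638 call was lost without DMSO replicate 1 (limma adjusted p = 0.120), UNC0638 replicate 1 (0.0656) or UNC0638 replicate 2 (0.123). It was also lost without the filter on dim probes (0.0827), with a fit of only the compared groups (0.0509) and with quantile normalization (0.0502). With normexp both changes stayed called at smaller sizes, 0.43 with UNC0638 and 0.53 with the combination.

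For OAS2 in MM.1S, A_23_P204087 gave levels of -0.70 and -0.76 with DMSO, -1.07 and -0.96 with GSK126, -0.14 and -0.066 with UNC0638, and -0.068 and -0.084 with both. Replicates were close and no treated group overlapped DMSO. OAS2 rose 1.54-fold with UNC0638 (log2 change 0.62, SE 0.08, limma adjusted p = 0.00507) and 1.57-fold with both (log2 change 0.65, SE 0.08, limma adjusted p = 0.00128), and its change of -0.29 with GSK126 did not pass (limma adjusted p = 0.0852).
A_33_P3225512 gave -1.98 and -1.40 with DMSO, -1.99 and -1.87 with GSK126, -1.37 and -1.19 with UNC0638, and -1.12 and -1.03 with both, and it was called with the combination only (log2 change 0.61, SE 0.19, limma adjusted p = 0.0374), a call lost when any 1 array other than DMSO replicate 2 was left out (limma adjusted p from 0.0532 to 0.137), without the filter on dim probes (0.0998), with a fit of only the compared groups (0.0823) or with quantile normalization (0.0737). Levels on A_33_P3225522 were 0.076 and 0.13 with DMSO, 0.025 and -0.14 with GSK126, 0.41 and 0.34 with UNC0638, and 0.41 and 0.26 with both. Its UNC0638 and combination arrays also lay above DMSO, but the changes of 0.27 and 0.23 did not pass (limma adjusted p = 0.0825 and 0.0889).

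OASL was dim in MM.1S, with levels of -5.45 and -4.38 with DMSO, -4.69 and -4.14 with GSK126, -4.15 and -3.45 with UNC0638, and -2.74 and -2.15 with both. Only 1 of 2 arrays was well above background with DMSO and with GSK126, and the combination arrays stood above all others. OASL rose 5.55-fold with the combination (log2 change 2.47, SE 0.44, limma adjusted p = 0.00468). In this line the probe entered the tests only through its UNC0638 and combination groups, so this call is not independent of the filter. The size depended on how dim signals were treated: with normexp the log2 change was 0.76, still called (limma adjusted p = 0.000302), and in the other alternatives it lay between 1.94 and 3.01. Its changes of 1.11 with UNC0638 (SE 0.44, limma adjusted p = 0.106) and 0.50 with GSK126 (limma adjusted p = 0.504) did not pass.

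**Figure D2:**
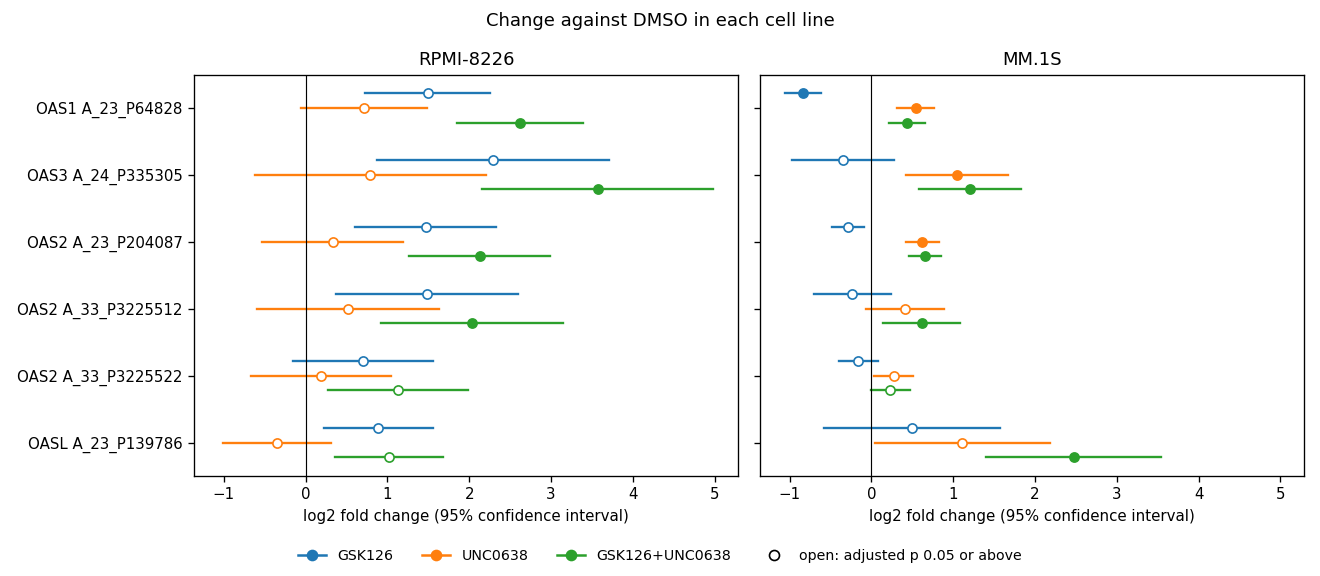
Log2 fold change against DMSO (x axis) with its 95% confidence interval for the 6 tested OAS family probes (y axis), by cell line (panel) and treatment (colour). Filled points had a limma adjusted p under 0.05: 4 probes with the combination in RPMI-8226, and in MM.1S 5 with the combination, 3 with UNC0638 and OAS1, at -0.84, with GSK126; the RPMI-8226 change of OAS3 is a fit against arrays not well above background.

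Over the family in MM.1S, 5 of 6 probes were called higher with the combination, against 22.2% of all 25100 probes called higher and 31.7% lower, and the median log2 change was 0.63 against -0.12. The OASL call among these carries the limit of the filter given above. With UNC0638, 3 of 6 were called higher, against 12.8% higher and 16.5% lower, with a median of 0.58 against -0.07. With GSK126, 1 of 6 was called lower and 0 higher, against 2.39% lower and 5.19% higher, with a median of -0.26 against -0.05. When both cell lines were fitted together, only OASL remained called with the combination and no OAS family probe with UNC0638 or GSK126 in MM.1S. That fit gave both lines 1 estimate of the spread, and the cause of the lost calls was not tested. As above, the share of all probes called in that fit is not given here. Of single arrays, leaving out UNC0638 replicate 2 took the UNC0638 count from 3 to 1, and leaving out GSK126 replicate 1 took the OAS1 call with GSK126 away (log2 change -0.80, limma adjusted p = 0.0643), as did fitting only the groups compared (limma adjusted p = 0.0539).

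Adding the second inhibitor was then tested directly. In MM.1S, UNC0638 on top of GSK126 raised all 6 probes (6 of 6 called higher, against 15.1% of all probes), by 1.27 for OAS1 (SE 0.09, limma adjusted p = 0.00109), 1.55 for OAS3 (SE 0.26, limma adjusted p = 0.00672), 0.94, 0.85 and 0.39 for the OAS2 probes A_23_P204087, A_33_P3225512 and A_33_P3225522, and 1.98 for OASL (SE 0.44, limma adjusted p = 0.0169). Conversely, GSK126 on top of UNC0638 gave 0 of 6 calls in that line, against 6.03% of all probes called higher. By unadjusted limma p under 0.05 there was 1, against 33.2% of all probes: OASL, with a log2 difference of 1.36 (95% interval 0.29 to 2.43, limma adjusted p = 0.0906). The other intervals bounded what GSK126 could have added: -0.33 to 0.12 for OAS1, -0.17 to 0.23 for OAS2 A_23_P204087 and -0.47 to 0.78 for OAS3.

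In RPMI-8226, GSK126 on top of UNC0638 raised OAS1 by 1.90 (SE 0.32, 3.74-fold, limma adjusted p = 0.0312), the 1 call among 6, against 2.69% of all probes called higher, and all 6 had an unadjusted limma p under 0.05, as did 19.2% of all probes. Differences of 2.78 for OAS3 (limma adjusted p = 0.0635), 1.80 for OAS2 A_23_P204087 (limma adjusted p = 0.0531) and 1.36 for OASL (limma adjusted p = 0.0547) did not pass. Blocking on the replicate number gave 3 calls of 6. The share of all probes called with this block, or in the refits that follow, is not given here. These counts therefore describe the OAS family probes only. The OAS1 call was absent without either combination array or either UNC0638 array, where the count was 0, and the count was 2 without either GSK126 array. UNC0638 on top of GSK126 gave 0 of 6 calls in this line, against 2.0% of all probes called higher, with 1 at an unadjusted limma p under 0.05, against 18.1% of all probes: OAS1, at 1.13 (95% interval 0.36 to 1.90, limma adjusted p = 0.147). For OASL the interval was -0.53 to 0.79, and without GSK126 replicate 1 the count in this comparison was 1.

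Departure from additivity asks whether the log2 change with both inhibitors differed from the sum of the single changes. No OAS family probe was called in RPMI-8226, where 0.164% of all probes were, or in MM.1S, where 0% were. By unadjusted limma p under 0.05 there were 0 of 6 in RPMI-8226, against 4.13% of all probes, and 2 of 6 in MM.1S, against 9.79%. All 6 departures lay above 0 in each line, with medians of 0.37 and 0.47 (over all probes -0.03 and -0.02). The OAS1 departure in MM.1S was 0.73 (SE 0.13, limma adjusted p = 0.329). It set the combined change of 0.44 against the sum of -0.84 with GSK126 and 0.54 with UNC0638.

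**Figure D3:**
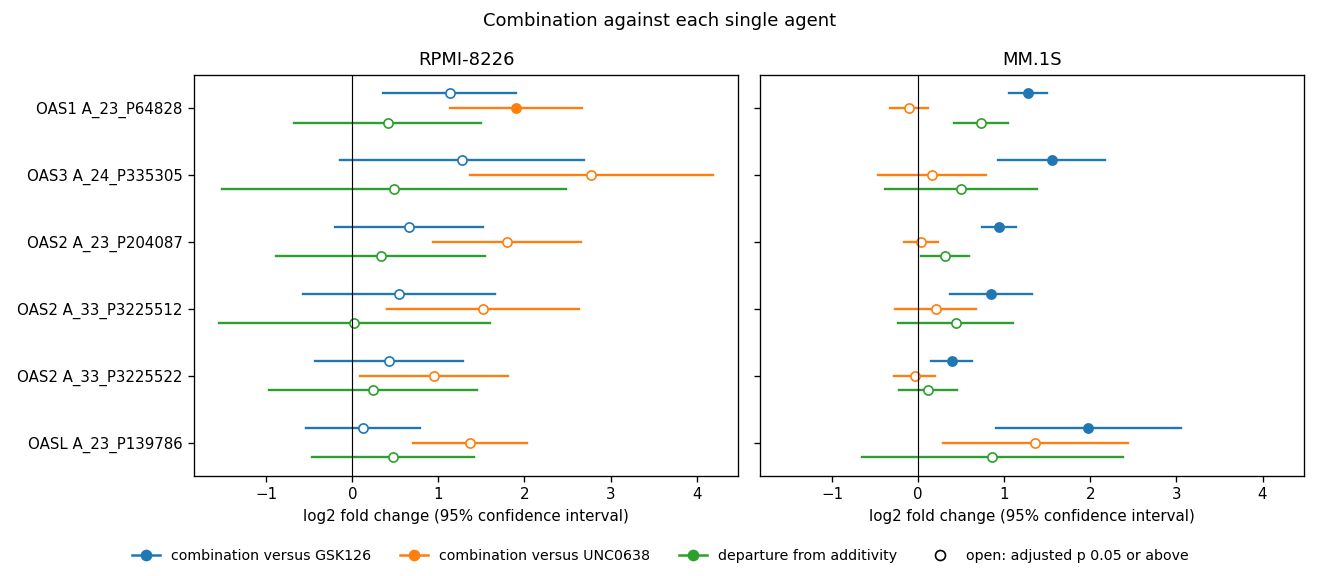
Log2 difference of the combination from each single agent, and departure from additivity (colours), with 95% confidence intervals (x axis) for the 6 tested OAS family probes (y axis) in each cell line (panel). Filled points had a limma adjusted p under 0.05: in MM.1S all 6 for the combination over GSK126, and in RPMI-8226 OAS1 at 1.90 for the combination over UNC0638.

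The lines differed in where the family started. With DMSO, OAS1 was 4.33-fold lower in RPMI-8226 than in MM.1S (log2 difference -2.11, SE 0.26, limma adjusted p = 4.75e-05), and OAS2 was 3.44-fold lower on A_23_P204087 (-1.78, SE 0.29, limma adjusted p = 0.000356) and on A_33_P3225512 (-1.78, SE 0.40). The fitted OAS3 difference was -1.69 (SE 0.51, limma adjusted p = 0.0161), against RPMI-8226 arrays not well above background. As a bound, OAS3 was at least 1.50-fold lower, and the bound itself was not tested. On OAS2 A_33_P3225522 the difference of -0.69 did not pass (limma adjusted p = 0.0623). OASL was the reverse, 23.5-fold higher in RPMI-8226 (log2 difference 4.55, SE 0.40), where only 1 of the 2 MM.1S arrays with DMSO measured it well above background. OAS family calls thus numbered 1 higher and 4 lower of 6, against 28.4% and 29.3% of all 26928 probes.

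The change with each treatment was compared between the lines with its own contrast. The OAS1 change with GSK126 was 2.33 higher in RPMI-8226 than in MM.1S on the log2 scale (SE 0.36, limma adjusted p = 0.0205), the 1 call of 6 against 0.357% of all probes called higher. For OAS3 this difference was 2.64 (SE 0.72, limma adjusted p = 0.171) and for OAS2 A_23_P204087 1.76 (SE 0.41, limma adjusted p = 0.102), and neither passed. With the combination, 2 of 6 were called higher, against 7.27% of all probes: OAS1 by 2.19 (SE 0.36, limma adjusted p = 0.00418) and OAS2 A_23_P204087 by 1.48 (SE 0.41, limma adjusted p = 0.0393). OASL went the other way, at -1.45 (SE 0.56), and did not pass (limma adjusted p = 0.119). With UNC0638, 0 of 6 were called, against 2.89% of all probes in either direction, and 1 had an unadjusted limma p under 0.05, against 18.4% of all probes, OASL at -1.46 (limma adjusted p = 0.201). The GSK126 count was 0 without any one of the 4 MM.1S arrays with DMSO or GSK126. The combination count was 1 without any one of the 8 MM.1S arrays, RPMI-8226 DMSO replicate 1 or RPMI-8226 combination replicate 2.

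**Figure D4:**
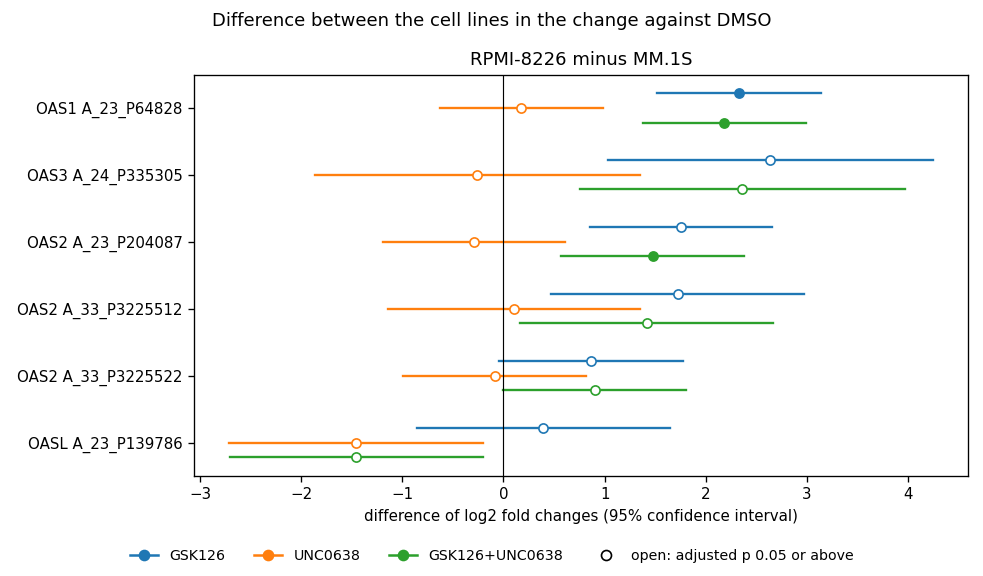
Difference between the cell lines (RPMI-8226 minus MM.1S) in the log2 change against DMSO, with 95% confidence intervals (x axis), for the 6 tested OAS family probes (y axis) and 3 treatments (colours). Filled points had a limma adjusted p under 0.05: OAS1 with GSK126 at 2.33 and with the combination at 2.19, and OAS2 A_23_P204087 with the combination at 1.48.

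Ordered over all 8 groups, OAS1 was highest in MM.1S with UNC0638 (mean -0.07), RPMI-8226 with both (-0.10) and MM.1S with both (-0.17), 3 groups that overlapped in turn. MM.1S with DMSO followed (-0.61), then RPMI-8226 with GSK126 (-1.23) and MM.1S with GSK126 (-1.44), which overlapped, then RPMI-8226 with UNC0638 (-2.00) and with DMSO (-2.72). OAS3 A_24_P335305 was highest in RPMI-8226 with both (-1.82), apart from all others, and lowest in RPMI-8226 with DMSO (-5.39). For OASL, all 4 RPMI-8226 groups (0.66 to -0.71) lay above all 4 MM.1S groups (-2.44 to -4.92). OAS2 A_23_P204087 was highest in MM.1S with both (-0.08) and with UNC0638 (-0.10) and RPMI-8226 with both (-0.38), which overlapped in turn, the last also with MM.1S with DMSO, and lowest in RPMI-8226 with DMSO (-2.51).

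Over the 16 arrays, after the mean of each line was subtracted, the probes of the clustered genes OAS1, OAS2 and OAS3 (A_24_P335305) varied together, with Pearson r between 0.82 and 0.96 for every pair. OASL correlated with them at 0.53 to 0.68. Within the 8 arrays of a line, its r with them was 0.77 to 0.85 in RPMI-8226 and 0.54 to 0.86 in MM.1S. Pairs of the clustered probes there gave 0.81 to 0.98 and 0.80 to 0.94, respectively. These are descriptions: the points share treatments and slides. By the same measure the genes most alike to OAS1, among 20676 candidates, were MYO1E (r = 0.931), C7orf10 (0.917) and SH2D1B (0.910). For OAS2, read on the variant-specific probe A_33_P3225522, which was called in no comparison with DMSO, they were LAMP3 (0.933), HLA-DPB1 (0.911) and HLA-DPA1 (0.900). For OAS3 they were MARCKS (0.926), CLDND1 (0.925) and C10orf58 (0.923), and for OASL DCUN1D3 (0.940), GPR155 (0.932) and CAPN12 (0.924).

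Of the ISGF3 genes read here, IRF9 rose with the combination in both lines. Activity and binding of ISGF3 were not tested. This gene, which codes for the DNA-binding subunit, had log2 changes of 1.54 in RPMI-8226 (limma adjusted p = 0.00399) and 1.48 in MM.1S (limma adjusted p = 0.000215). IRF9 levels were -1.23 to -0.89 with DMSO against 0.44 to 0.53 with both inhibitors in RPMI-8226, and -0.86 to -0.81 against 0.64 on both arrays in MM.1S. Of 6 receptor and ISGF3 genes (IFNAR1, IFNAR2, JAK1, TYK2, STAT2 and IRF9), 1 was called higher and 0 lower in RPMI-8226, against 7.20% and 5.15% of all probes, and 3 higher and 1 lower in MM.1S, against 22.2% and 31.7%. The median log2 changes were 0.57 and 0.16 (-0.13 and -0.12 over all probes). In MM.1S the further calls were STAT2 at 0.88, JAK1, a receptor-bound kinase, at 0.40, and the receptor chain IFNAR2 at -0.92. With single agents none of the 6 was called in RPMI-8226. In MM.1S, UNC0638 raised IRF9 (1.13) and STAT2 (0.66) and lowered IFNAR2 (-0.61), and GSK126 changed none.

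Most interferon genes were not detected on these arrays. Of 5 measured (IFNA2, IFNB1, IFNL1, IFNL2 and IFNL3), IFNA2, IFNB1 and IFNL3 were not well above background on any array. IFNL1, a type III interferon, was above background only on both MM.1S arrays with UNC0638, at least 1.42-fold over DMSO. Its probe entered the tests of that line only through this group, so no p is given. IFNL2 was called in no comparison with DMSO.

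Other sensors of double-stranded RNA or DNA, with their editor and adaptor, numbered 10. With the combination, 0 were called higher and 1 lower of 9 kept in RPMI-8226, and 3 higher and 1 lower of 10 in MM.1S (the same 7.20% and 5.15%, and 22.2% and 31.7%, of all probes), with median log2 changes of 0.35 and 0.20 (-0.13 and -0.12 over all probes). In MM.1S these were DHX58 (LGP2, a RIG-I-like receptor) at 2.01, TLR3, the endosomal sensor, at 1.63, and IFIH1 (MDA5) at 0.61. DHX58 levels in MM.1S ran from -1.15 to -1.11 with DMSO and from 0.85 to 0.91 with both. MB21D1 (cGAS, the DNA sensor) fell by 0.59 in RPMI-8226 and fell by 0.87 in MM.1S on the log2 scale. TLR3 in RPMI-8226 was not well above background with DMSO and at least 2.01-fold higher with both. Its fitted change was not called (limma adjusted p = 0.158), and the bound itself was not tested.

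The 2-5A partners were 4 genes: PDE12 and AKAP7, which can degrade 2-5A, ENPP1, a phosphodiesterase reported to do so, and ABCE1, best known for ribosome recycling. In MM.1S the combination raised AKAP7 by 1.11 and ENPP1 by 1.03 and lowered ABCE1 (-1.0) and PDE12 (-0.55), so 2 of 4 were called in each direction, where 22.2% of all probes were called higher and 31.7% lower. In RPMI-8226 only ABCE1 (-0.57) and PDE12 (-0.44) were kept, and neither passed (limma adjusted p = 0.0960 and 0.159). With single agents in MM.1S, GSK126 raised ENPP1 (0.80) and UNC0638 raised AKAP7 (0.92).

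Genes beside the family on chromosome 12 were read as well. Of 4 beside the cluster (RPH3A, DTX1, RASAL1 and PTPN11), RPH3A and DTX1 were above background on no array. RASAL1, a Ras GTPase activator, fell with the combination in RPMI-8226 (-1.01, limma adjusted p = 0.0136) and rose with GSK126 in MM.1S (1.19, limma adjusted p = 0.0188), and PTPN11, the phosphatase SHP2, was not called in any comparison with DMSO. Beside OASL, P2RX7, an ATP-gated channel, fell with the combination in RPMI-8226 (-1.34, limma adjusted p = 0.0240) and rose with UNC0638 in MM.1S (0.53, limma adjusted p = 0.0407).

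**Figure D5:**
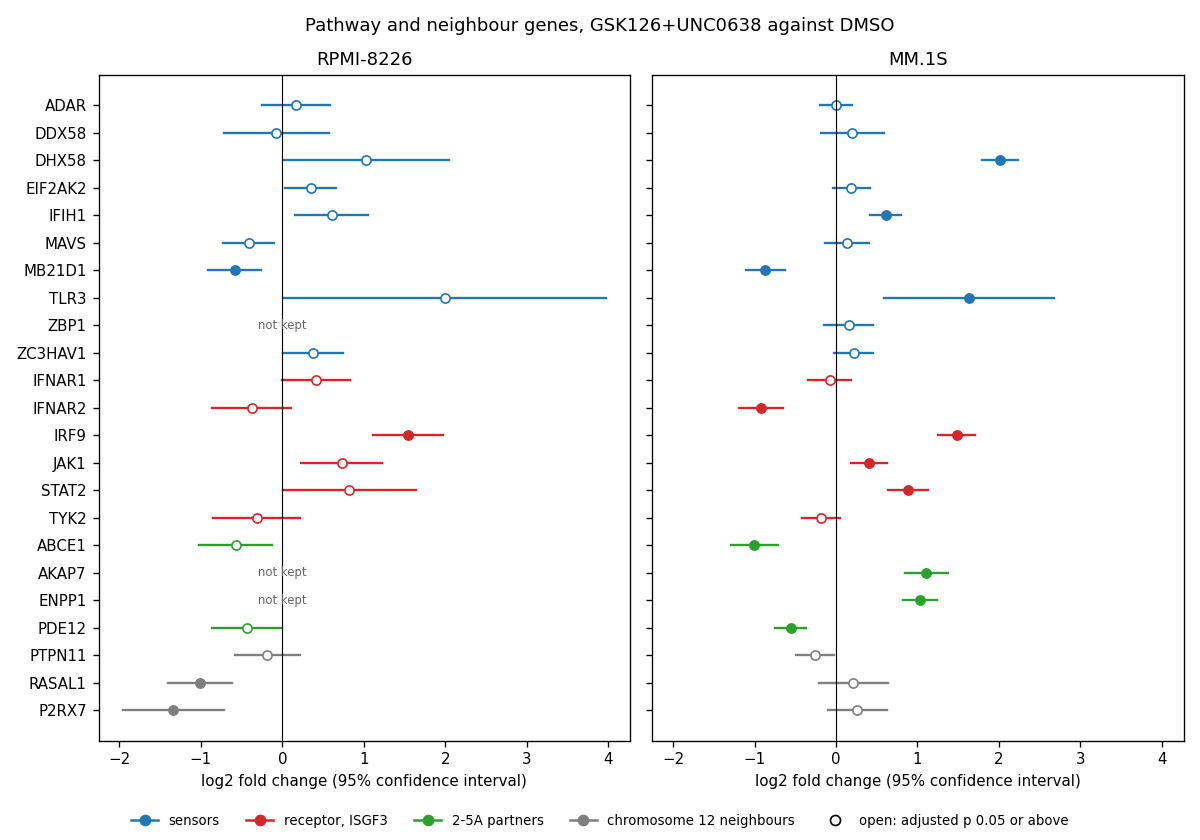
Log2 fold change with GSK126 + UNC0638 against DMSO, with 95% confidence intervals (x axis), for pathway and neighbouring genes measured in at least 1 line (y axis, coloured by list), in each cell line (panel). Filled points had a limma adjusted p under 0.05: IRF9 lies to the right in both lines, MB21D1 to the left in both, and DHX58 reaches 2.01 in MM.1S.

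Markers of other cell types moved with treatment in RPMI-8226. The summed level of 4 T cell markers, on a linear scale relative to the 75th percentile, was 0.407 to 0.477 with DMSO, 0.910 to 1.49 with GSK126, 3.96 to 4.66 with UNC0638 and 12.3 to 14.0 with both. CD3E was not well above background with DMSO or GSK126 and 4 of 4 were detected with UNC0638 and with both. In MM.1S the sum went from 0.231 to 0.263 with DMSO to 0.740 to 0.816 with both. Myeloid markers, 3 of 4 on the array, summed to 0.537 to 0.932 with DMSO and 3.63 to 4.84 with both in RPMI-8226, with FCGR3A not detected in any group, and to no more than 0.167 in MM.1S. The B cell markers MS4A1 and PAX5 summed to 0.0245 to 0.0274 with DMSO and 0.582 to 1.19 with both in RPMI-8226, where PAX5 stayed undetected. MS4A1 was not well above background with DMSO in either line and was on both arrays with both inhibitors, at mean levels of -0.29 in RPMI-8226 and -3.33 in MM.1S. Epithelial markers summed to 63.4 to 93.4 in RPMI-8226 and 0.451 to 1.01 in MM.1S, with CDH1 not detected. EPCAM in MM.1S had a mean level of -2.73 with DMSO and was well above background on no array with UNC0638 or both. Plasma cell markers summed to 255 to 295 with DMSO and 162 to 208 with both in RPMI-8226, and to 533 to 543 and 360 to 361 in MM.1S. With the combination 1 of 8 was called higher and 3 lower in RPMI-8226, against 7.20% and 5.15% of all probes. In MM.1S 8 of 8 were called lower, against 31.7% of all probes. The 1 higher was SLAMF7, whose mean level in RPMI-8226 went from -2.56 to 2.33 (limma adjusted p = 0.00138). These are 2 cultured lines, and the part of such marker changes in the OAS family result was not tested.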

How the data were processed

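Gene expression was measured with one-colour (Cy3) Agilent SurePrint G3 Human arrays. Per the labels, the authors extracted intensities with Agilent Feature Extraction 10.7, and the deposited scanner files hold the processed intensity of each spot, already background-subtracted, with no normalization between arrays. The authors also deposited a series table of the same intensity values, 99.9958% of which equalled the scanner values after rounding to 3 significant digits. Depth is not a property of arrays, and the number of arrays (2 per group) limits the precision.

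From the deposited intensities, log2 values minus the 75th percentile of the array over 58717 non-control spots were computed. Control and outlier-marked spots were left out and spots of 1 probe were averaged. Probes entered the test of a line if every array of at least 1 group read them well above background (23196 probes in RPMI-8226, 25100 in MM.1S, 26928 in either). Tests used limma 3.58.1 in R 4.3.3 with the package data.table (version 1.17.8), 1 fit per line over 4 groups (8 arrays), or 1 fit over 16 arrays for differences between the lines, with Benjamini-Hochberg adjustment over all kept probes and a threshold of 0.05. Where the dimmer group was on no array well above background, the fold is a lower bound against the dimmest signal that any probe well above background gave on each array. The fits were tested on simulated data. All 7 OAS family probes are shown. Genes outside the family were read by their brightest probe, and the most alike genes are the 3 with the highest Pearson r to the brightest probe of each member. The members and lists were chosen with earlier results of these data known. Some genes of the lists are not reported here. The study's methods name ontology, pathway and gene set analyses of these arrays, and no test per probe.

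Same-numbered arrays deviated together in RPMI-8226 (6 of 6 pairs, r from 0.254 to 0.415), so replicate numbers were taken to pair there. In MM.1S 5 of 6 pairs were over 0.1 (r from 0.0847 to 0.225). The main tests did not use this pairing, which entered only as the replicate block. In every group, replicate 1 lay in slide row 1 and replicate 2 in slide row 2. Replicate number and slide row therefore cannot be told apart. Alternatives were quantile normalization, the percentile over detected probes, normexp background correction (offset 50), filters on dim probes, the series table, the replicate block, an intensity-dependent prior, other sets of arrays in the fit and leaving out each array in turn. Promoter sequences are RefSeq's (GRCh38.p14), and probe positions are those of the array files (GRCh37).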

Additional observations from a re-analysis of the deposited data

Results flagged for a closer look

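Changes that differed between the cell lines by a direct test drew attention for 2 OAS family genes. The OAS1 log2 change with GSK126 was 2.33 higher in RPMI-8226 than in MM.1S (SE 0.36, limma adjusted p = 0.0205), with the GSK126 arrays above DMSO in RPMI-8226 and below DMSO in MM.1S. The OAS1 change with GSK126 + UNC0638 was 2.19 higher in RPMI-8226 (SE 0.36, limma adjusted p = 0.00418), from 2.62 and 0.44 in the separate lines. For OAS2 A_23_P204087 the combination change was 1.48 higher (SE 0.41, limma adjusted p = 0.0393), from 2.13 and 0.65.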

How the results depend on the processing

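Counts of OAS family probes called, of 6, stayed within 1.5 times their value in 263 recomputations, were higher in 18 and lower in 33. The share of all probes called in each recomputation is not given here, so these counts describe the OAS family probes only. Fitting all 16 arrays together gave 3 with GSK126 in RPMI-8226 and 0 in MM.1S, 0 with UNC0638 and 1 with the combination in MM.1S, and in RPMI-8226 1 for the combination over GSK126 and 4 over UNC0638. Fitting only the groups compared gave 0 with GSK126 in MM.1S, 0 and 1 for the line differences with GSK126 and the combination, and 3 for the combination over UNC0638 in RPMI-8226. That last count was 4 with an intensity-dependent prior or normexp, 0 without a filter, 2 with only probes above background on all arrays and 3 with the percentile over detected probes. In MM.1S the combination over UNC0638 gave 1 with the intensity-dependent prior or normexp, and over GSK126 3 without a filter. The line difference with the combination was 1 without a filter and with normexp. With the replicate block, counts were 2 and 4 for the line differences with GSK126 and the combination, and for the combination over UNC0638 3 in RPMI-8226 and 1 in MM.1S, where OASL with UNC0638 was also called (limma adjusted p = 0.0081).

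Leaving out 1 array at a time, OAS counts ranged from 0 to 1 with GSK126 in either line, 1 to 4 (RPMI-8226) and 4 to 5 (MM.1S) with the combination, 1 to 4 with UNC0638 in MM.1S, 0 to 1 and 0 to 2 for the combination over GSK126 and UNC0638 in RPMI-8226, 4 to 6 over GSK126 in MM.1S, and 0 to 1 and 1 to 3 for the line differences with GSK126 and the combination. A lone array was taken to vary like the other groups. Changes that turned sign were all uncalled. With UNC0638 in RPMI-8226, OAS2 A_23_P204087 ranged from -0.070 (without UNC0638 replicate 2) to 0.74, OAS2 A_33_P3225512 from -0.10 (without DMSO replicate 1) to 1.13, OAS2 A_33_P3225522 from -0.18 (without DMSO replicate 1) to 0.54, with -0.05 without UNC0638 replicate 2, and OAS3 from -0.085 (without DMSO replicate 1) to 1.67. With GSK126 in MM.1S, OAS2 A_33_P3225512 ranged from -0.53 to 0.058 (without DMSO replicate 2) and OASL from -0.036 (without DMSO replicate 1) to 1.03. The causes were not tested.

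The OAS1 call with the combination in RPMI-8226 was kept in all 18 alternatives and that of OASL in MM.1S in all 17 that could be run. The percentile over detected probes moved the median of all probes by 0.13 (RPMI-8226) and 0.18 (MM.1S) for the combination. It moved the share of calls that were higher from 58.3% to 75.2% and from 41.2% to 57.5%, from 43.7% to 59.8% for UNC0638 in MM.1S and from 68.5% to 83.4% for GSK126 in MM.1S, where normexp gave 54.9%. The signs of the OAS changes against DMSO that were called did not turn under any alternative.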
